A study of Mus musculus with 10 samples.

Results

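Long noncoding RNAs (lncRNAs) are transcripts of some length that are not annotated as coding for a protein. The genes described here are the lncRNAs expressed in mouse liver and in 2 kinds of mouse liver tumour. A gene was taken where the deposited table gives its biotype as lncRNA and where its mean was at least 5 FPKM (fragments per kilobase of transcript, scaled to the size of the library) in 1 or more of 3 groups. H19 and Meg3 were left out by the rule. The table lists 56748 genes, of which 11288 are lncRNAs. Of these lncRNAs, 4955 were above 0 in at least 1 library and 120 met the rule. Meg3 was under the level in any case. The genes were thus chosen by their mean FPKM in these same libraries, so how high they stand is a description and not a result.

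The study compared tumours that arise with and without an active FOXO1. In 1 tumour group Foxo1AAA was delivered together with both oncogenes (Akt/Nras/Foxo1AAA tumours, n = 3). The other tumour group received the oncogenes Akt and Nras without it (Akt/Nras tumours, n = 3). Both are models of hepatocellular carcinoma that start from plasmids brought into hepatocytes through a tail vein under hydrodynamic pressure, a method that reaches a fraction of the hepatocytes. The third group is normal liver of wild-type FVB mice (n = 4). The labels state neither age nor sex. Foxo1AAA is a form of the transcription factor FOXO1 that AKT cannot exclude from the nucleus. Nothing in the labels says that libraries of a group come from separate mice, so a p-value reflects only how much these libraries vary, which may be technical.

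Some lncRNAs act in the nucleus, where Malat1 sits in nuclear speckles and Neat1 holds paraspeckles together. Others are spliced hosts from whose introns small nucleolar RNAs (snoRNAs) or microRNAs (miRNAs) are cut, and the host transcript itself is often degraded by nonsense-mediated decay. Many lie on the opposite strand of a protein-coding gene or share a start region with it, and are transcribed in the same cells as that neighbour. As a class, lncRNAs are known for low levels and for being more restricted to 1 tissue than messenger RNAs.

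The 10 libraries held 13.6 to 21.3 M reads over genes, recovered from the deposited values. All 120 lncRNAs took 0.131 to 0.146% of these reads in Akt/Nras/Foxo1AAA tumours and 0.138 to 0.151% in Akt/Nras tumours, against 0.242 to 0.279% in normal livers. The share does not depend on the scaling of the FPKM, and the groups did not overlap between tumours and normal liver. It does depend on the choice of genes, as 67 of the 120 reached the level in normal liver only. All lncRNAs of the table, H19 and Meg3 included, took 0.266 to 0.298% of reads in Akt/Nras/Foxo1AAA tumours and 0.306 to 0.358% in Akt/Nras tumours. In normal livers they took 0.417 to 0.502%. Summed over the 120 genes the level was 671 to 809 FPKM in Akt/Nras/Foxo1AAA tumours and 607 to 656 FPKM in Akt/Nras tumours, against 1721 to 2069 FPKM in normal livers. The number by which the authors divided each library's reads was 0.875 to 0.928 of the summed reads in Akt/Nras/Foxo1AAA tumours and 1.002 to 1.061 in Akt/Nras tumours, against 0.629 to 0.668 in normal livers, so the deposited FPKM of normal livers stand higher than plain FPKM would. All 9 hepatocyte markers examined, such as albumin, were lower in both tumour groups by the deposited values (7 of 9 in each with equal totals, and 1 higher with Foxo1AAA), and their summed level was 29506 to 41310 FPKM in Akt/Nras/Foxo1AAA tumours and 24538 to 26923 FPKM in Akt/Nras tumours, against 74625 to 78895 FPKM in normal livers. Of 8 cholangiocyte and progenitor markers 7 were tested, and 5 were higher in Akt/Nras/Foxo1AAA tumours and 7 in Akt/Nras tumours; their sum, nearly all of it osteopontin (Spp1), was 2771 to 5512 FPKM and 4235 to 5913 FPKM in these tumour groups, against 16.5 to 24.3 FPKM in normal livers. The 8 stellate cell and fibroblast markers summed to 95.1 to 128 FPKM in Akt/Nras/Foxo1AAA tumours and 148 to 177 FPKM in Akt/Nras tumours, against 34.0 to 41.2 FPKM in normal livers. By the deposited values 5 of these 8 were higher and 2 lower in each tumour group. With equal totals 6 were higher in Akt/Nras/Foxo1AAA tumours and 7 in Akt/Nras tumours, and 0 were lower in either. All 4 tested neutrophil markers were higher in both tumour groups, and of 6 cycling markers 3 were higher in Akt/Nras/Foxo1AAA tumours and 6 in Akt/Nras tumours. Mitochondrial genes took 2.44 to 3.48% of reads in Akt/Nras/Foxo1AAA tumours and 2.18 to 2.55% in Akt/Nras tumours, against 5.59 to 7.93% in normal livers. The 8 markers of T and B cells summed to at most 2.51 FPKM in any library. The part of cell makeup in the changes below was not tested, and in bulk tissue fewer cells of a type and less RNA per cell cannot be told apart.

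By the deposited values the lncRNA repertoire was mostly that of normal liver. The level was set on these FPKM, which stand higher in normal livers than plain FPKM would, so the classes depend on that scaling. Of the 120 lncRNAs 67 reached the level in normal liver only, 31 in all 3 groups, 10 in both tumour groups but not in normal liver, 7 in Akt/Nras/Foxo1AAA tumours and normal liver, 1 in Akt/Nras tumours and normal liver, 2 in Akt/Nras/Foxo1AAA tumours only and 2 in Akt/Nras tumours only. The highest group mean was that of normal liver for 97 lncRNAs (80.8%), of Akt/Nras tumours for 15 and of Akt/Nras/Foxo1AAA tumours for 8. Of 6772 protein-coding genes past the same level, 54.7% had their highest mean in normal liver, 70.0% reached the level in all 3 groups and 8.71% in normal liver only. These shares describe the levels that chose the genes and carry no test. The 120 genes lie on 20 chromosomes, 1 of them on X, and their deposited lengths run over 205 to 21163 bases with a median of 1564.5. In 43 the length equals the genomic span, as for an unspliced gene, and 30 have an Ensembl identifier but no symbol in the table.

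**Figure D1:**
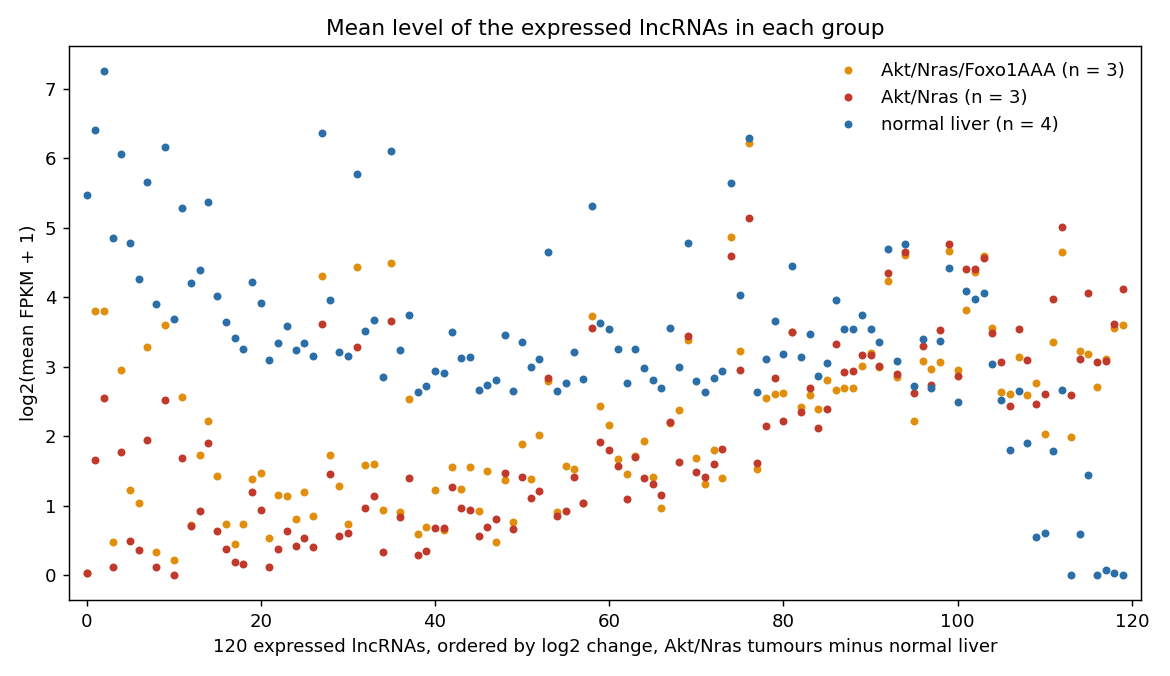
Mean level of each of the 120 expressed lncRNAs, as log2(mean FPKM + 1), in Akt/Nras/Foxo1AAA tumours (orange), Akt/Nras tumours (red) and normal livers (blue), 1 column of points per gene. On the left the blue points stand above both tumour groups, and the 23 genes at the right have a positive log2 change in Akt/Nras tumours, 19 of them called.

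Differences were tested for every gene of the table with at least 1 FPKM in at least 3 libraries, in 1 limma fit on log2(FPKM + 1), and a gene was called at a Benjamini-Hochberg adjusted p under 0.05. On this scale the log2 change of a gene with low FPKM comes out too small. In Akt/Nras/Foxo1AAA tumours 92 of the 120 lncRNAs were called lower and 16 higher than in normal liver, where 36.5% and 26.8% of all 12439 tested genes were called in these directions and 63.3% in either. In Akt/Nras tumours 91 were called lower and 19 higher, where 37.9% and 31.1% of all genes were called and 69.0% in either. Brought to equal FPKM totals per library, the split was 75 lower and 24 higher in Akt/Nras/Foxo1AAA tumours and 73 lower and 30 higher in Akt/Nras tumours, while 12.7% of all tested genes were lower and 62.2% higher in Akt/Nras/Foxo1AAA tumours, and 12.9% lower and 70.8% higher in Akt/Nras tumours. The median log2 change of the lncRNAs was -1.39 in Akt/Nras/Foxo1AAA tumours and -1.71 in Akt/Nras tumours, beside -0.09 and -0.07 over all tested genes. A lncRNA that reached 5 FPKM in normal liver only had to stand lower in tumours, so these counts describe the list and no adjusted p is given below for the tumours against normal liver where a gene reached the level on 1 side only. The 31 lncRNAs that reached it in all 3 groups were free of that condition. Of them 18 were lower and 3 higher in Akt/Nras/Foxo1AAA tumours, with a median log2 change of -0.46, and 17 were lower and 5 higher in Akt/Nras tumours, with a median of -0.56. For these 31 the direction rests on the scaling: with equal totals 8 were lower and 10 higher in Akt/Nras/Foxo1AAA tumours (median 0.23), and 6 were lower and 15 higher in Akt/Nras tumours (median 0.32).

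The 390 tested lncRNAs that did not meet the rule were lower more often than higher by the deposited values. Of them 241 were lower and 40 higher in Akt/Nras/Foxo1AAA tumours than in normal liver (median log2 change -0.64), and 247 were lower and 45 higher in Akt/Nras tumours (median -0.70). With equal totals 357 of them were tested, with 122 lower and 90 higher in Akt/Nras/Foxo1AAA tumours and 128 lower and 114 higher in Akt/Nras tumours. A gene could enter the test through its level in the normal livers alone, so these counts, too, are a description. Protein-coding genes past the level of 5 FPKM were called lower in 44.2% of cases and higher in 26.7% in Akt/Nras/Foxo1AAA tumours, and lower in 46.8% and higher in 29.9% in Akt/Nras tumours. The 2 comparisons share the 4 normal livers.

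Among the most abundant lncRNAs of normal liver, BC024386 had the highest mean and was low in tumours. It had 16.01, 13.5 and 9.02 FPKM in Akt/Nras/Foxo1AAA tumours and 3.10, 5.83 and 5.66 FPKM in Akt/Nras tumours, against 149.7, 177, 159 and 119 FPKM in normal livers. Every tumour library was below every normal liver, and the log2 changes were -3.48 ± 0.22 in Akt/Nras/Foxo1AAA tumours and -4.72 ± 0.22 in Akt/Nras tumours. Gm32872, a spliced transcript of 205 bases that lies inside Cabcoco1 on the opposite strand, had 19.9, 12.6 and 6.49 FPKM in Akt/Nras/Foxo1AAA tumours and 0, 1.37 and 5.04 FPKM in Akt/Nras tumours, against 78.7, 95.7, 86.7 and 73.6 FPKM in normal livers. The tumour libraries did not overlap with normal livers, and 1 Akt/Nras library was listed at 0. Its log2 changes were -2.71 ± 0.51 in Akt/Nras/Foxo1AAA tumours and -5.12 ± 0.51 in Akt/Nras tumours. The length in the GENCODE M21 annotation of GRCm38 equals the deposited length, so the annotated transcript of this strongly changed lncRNA can be shown. RefSeq places a start of this gene farther upstream, with its promoter at chr10:68528750-68529049, so where the RNA begins is not settled. Its 2 exons of 115 and 90 bases (chr10:68530094-68533936, plus strand, GRCm38) follow with the second exon in capitals.
Gm32872: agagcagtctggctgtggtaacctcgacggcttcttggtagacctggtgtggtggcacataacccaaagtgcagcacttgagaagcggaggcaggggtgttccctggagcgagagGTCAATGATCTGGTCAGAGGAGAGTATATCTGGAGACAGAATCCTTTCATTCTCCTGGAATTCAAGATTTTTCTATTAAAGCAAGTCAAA

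1810008I18Rik had 7.84, 6.68 and 5.68 FPKM in Akt/Nras/Foxo1AAA tumours and 1.18, 3.02 and 3.06 FPKM in Akt/Nras tumours, against 52.0, 74.0, 68.4 and 68.2 FPKM in normal livers. The groups did not overlap with normal liver, and the log2 changes were -3.10 ± 0.22 in Akt/Nras/Foxo1AAA tumours and -4.33 ± 0.22 in Akt/Nras tumours. 2310015A16Rik averaged 11.1 ± 0.920 FPKM in Akt/Nras/Foxo1AAA tumours and 4.72 ± 1.58 FPKM in Akt/Nras tumours, against 70.4 ± 15.4 FPKM in normal livers (SD, n = 3, 3 and 4). 9130016M20Rik, which lies 1088 bases from the gene of the RNA-editing cofactor A1cf, averaged 18.8 ± 2.90 FPKM in Akt/Nras/Foxo1AAA tumours and 11.3 ± 2.32 FPKM in Akt/Nras tumours, against 81.3 ± 9.37 FPKM in normal livers. Both were lower in all 6 tumour libraries than in any normal liver. Gm31583 was near 0 in tumours, with 0.489, 0.304 and 0.393 FPKM in Akt/Nras/Foxo1AAA tumours and 0.0992, 0.0204 and 0.119 FPKM in Akt/Nras tumours, against 21.4, 30.3, 34.1 and 25.4 FPKM in normal livers. No tumour library reached 0.5 FPKM, and the log2 changes were -4.35 ± 0.14 in Akt/Nras/Foxo1AAA tumours and -4.72 ± 0.14 in Akt/Nras tumours. Gm14097, inside the gene of the DNA repair factor Shld1 on the opposite strand, averaged 1.34 ± 0.780 FPKM in Akt/Nras/Foxo1AAA tumours and 0.399 ± 0.260 FPKM in Akt/Nras tumours, against 26.5 ± 7.68 FPKM in normal livers. Gm53019, on the opposite strand of Cmah, the enzyme that makes N-glycolylneuraminic acid, averaged 0.652 ± 0.109 FPKM in Akt/Nras/Foxo1AAA tumours and 0.634 ± 0.424 FPKM in Akt/Nras tumours, against 17.4 ± 3.10 FPKM in normal livers.

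Of the genes with an identifier only, ENSMUSG00000120841 (chr12:104044204-104045428, plus strand, as deposited) had the largest decrease in both tumour groups. It had 0, 0 and 0.0571 FPKM in Akt/Nras/Foxo1AAA tumours and 0, 0 and 0.0766 FPKM in Akt/Nras tumours, against 28.4, 28.2, 87.6 and 28.3 FPKM in normal livers. It was at 0 or nearly so in every tumour library, and 1 of the 4 normal livers stood far above the other 3. Its log2 changes were -5.25 ± 0.34 in Akt/Nras/Foxo1AAA tumours and -5.24 ± 0.34 in Akt/Nras tumours. ENSMUSG00000120338 averaged 1.06 ± 0.322 FPKM in Akt/Nras/Foxo1AAA tumours and 0.284 ± 0.264 FPKM in Akt/Nras tumours, against 18.2 ± 1.53 FPKM in normal livers. ENSMUSG00000119971, which lies 2505 bases from the peroxisomal coenzyme A hydrolase gene Nudt7, was listed at 0 in all 3 Akt/Nras tumours and averaged 0.161 ± 0.0577 FPKM in Akt/Nras/Foxo1AAA tumours, against 11.9 ± 3.30 FPKM in normal livers.

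The 3 lncRNAs listed as liver lncRNAs were lower in both tumour groups. 0610005C13Rik, a lncRNA known for its liver expression in mice, had 25.2, 19.5 and 19.5 FPKM in Akt/Nras/Foxo1AAA tumours and 12.98, 9.78 and 12.1 FPKM in Akt/Nras tumours, against 69.0, 64.7, 66.4 and 71.7 FPKM in normal livers. It lies opposite to Bcat2, an enzyme of branched-chain amino acid breakdown. As it was above the level in all groups, its differences were not forced by the rule, and the log2 changes were -1.63 ± 0.11 in Akt/Nras/Foxo1AAA tumours (adjusted p = 9.5e-07) and -2.46 ± 0.11 in Akt/Nras tumours (adjusted p = 3.8e-08) by limma. 0610031O16Rik averaged 1.69 ± 0.416 FPKM in Akt/Nras/Foxo1AAA tumours and 0.551 ± 0.244 FPKM in Akt/Nras tumours, against 15.2 ± 2.01 FPKM in normal livers. Hnf4aos, on the opposite strand of the hepatocyte transcription factor gene Hnf4a, had 0.401, 0.291 and 0.0728 FPKM in Akt/Nras/Foxo1AAA tumours and 0, 0 and 0.244 FPKM in Akt/Nras tumours, against 12.8, 11.5, 18.4 and 12.8 FPKM in normal livers. Its log2 changes were -3.55 ± 0.16 in Akt/Nras/Foxo1AAA tumours and -3.77 ± 0.16 in Akt/Nras tumours, whereas Hnf4a itself changed by -0.46 (adjusted p = 0.0013) and -0.89 (adjusted p = 9.2e-06) in the tumour groups in that order. Hnf4a averaged 120.9 ± 8.76 FPKM in Akt/Nras/Foxo1AAA tumours and 89.6 ± 5.54 FPKM in Akt/Nras tumours, against 167 ± 13.8 FPKM in normal livers, a smaller change than that of the lncRNA on the log2 scale. The difference between the changes was not tested, and with equal totals Hnf4a had 0.26 and 0.078.

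**Figure D2:**
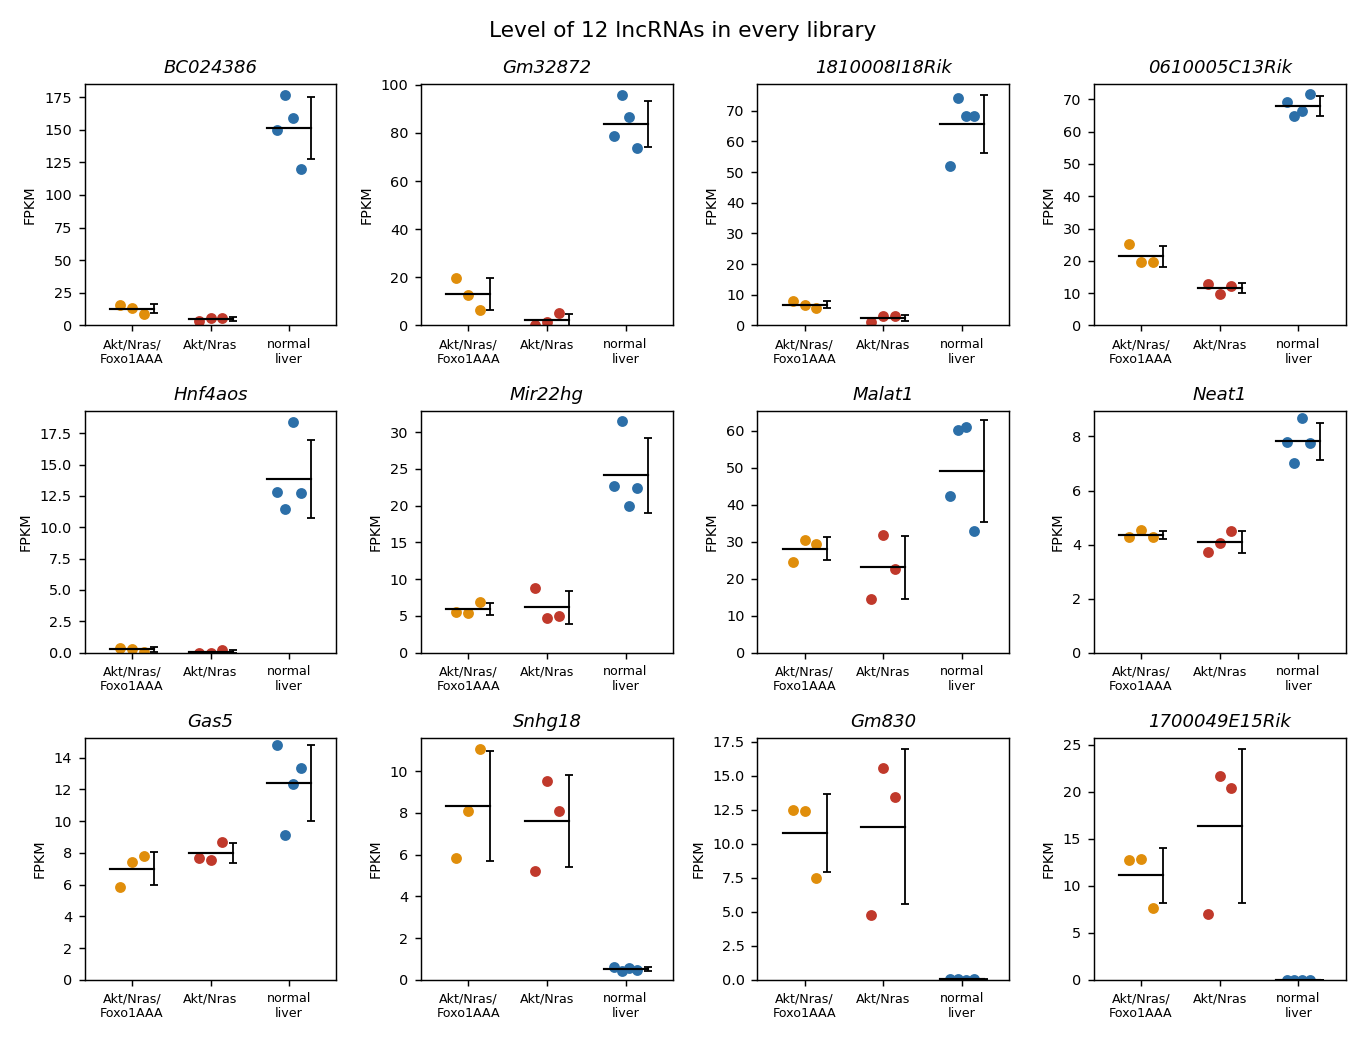
FPKM of 12 lncRNAs in every library, with 1 point per library, the group mean as a line and the SD as a bar, in Akt/Nras/Foxo1AAA tumours (n = 3), Akt/Nras tumours (n = 3) and normal livers (n = 4). BC024386 lies between 9.02 and 16.01 FPKM in Akt/Nras/Foxo1AAA tumours and between 3.10 and 5.83 FPKM in Akt/Nras tumours, against 119 to 177 FPKM in normal livers, whereas Snhg18, Gm830 and 1700049E15Rik are high in both tumour groups.

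A smaller set of lncRNAs was high in tumours. 1700049E15Rik was listed at 0 in all 4 normal livers, and had 12.7, 12.9 and 7.69 FPKM in Akt/Nras/Foxo1AAA tumours and 6.97, 21.7 and 20.4 FPKM in Akt/Nras tumours. Gm33782, too, was listed at 0 in every normal liver, with 4.69, 6.06 and 5.82 FPKM in Akt/Nras/Foxo1AAA tumours and 4.12, 7.18 and 10.7 FPKM in Akt/Nras tumours. Gm830 had 12.5, 12.4 and 7.504 FPKM in Akt/Nras/Foxo1AAA tumours and 4.802, 15.6 and 13.4 FPKM in Akt/Nras tumours, against 0.0241, 0.0314, 0 and 0.0320 FPKM in normal livers. The normal livers were at or near 0, and the 3 Akt/Nras libraries differed widely among themselves. Gm47815, inside Sobp on the opposite strand, averaged 7.65 ± 1.76 FPKM in Akt/Nras/Foxo1AAA tumours and 7.47 ± 1.94 FPKM in Akt/Nras tumours, against 0.0475 ± 0.0597 FPKM in normal livers. Gm20186, which starts 45 bases from the start of Lsm8 in the other direction, had 5.95, 7.04 and 11.1 FPKM in Akt/Nras/Foxo1AAA tumours and 19.3, 13.2 and 14.4 FPKM in Akt/Nras tumours, against 2.09, 1.33, 1.51 and 1.97 FPKM in normal livers. Its log2 changes were 1.70 ± 0.19 in Akt/Nras/Foxo1AAA tumours and 2.602 ± 0.19 in Akt/Nras tumours.

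Some of the lncRNAs that were high in tumours lie within genes that rose as well. ENSMUSG00000120849 is a stretch of 297 bases on the same strand inside Mmp14, the membrane-bound matrix metalloproteinase, and had 23.0, 21.9 and 27.6 FPKM in Akt/Nras/Foxo1AAA tumours and 41.8, 25.0 and 26.7 FPKM in Akt/Nras tumours, against 5.46, 6.76, 5.28 and 3.82 FPKM in normal livers. Mmp14 averaged 36.0 ± 6.06 FPKM in Akt/Nras/Foxo1AAA tumours and 45.8 ± 9.48 FPKM in Akt/Nras tumours, against 6.61 ± 0.636 FPKM in normal livers, with log2 changes of 2.27 and 2.61 in the tumour groups in that order (adjusted p = 5.0e-07 and 1.1e-07). Reads of the lncRNA and of Mmp14 share their strand and position, and how the authors assigned them is not given in the sources used here. Gm47163, listed at 0 in all normal livers and at 4.10, 2.89 and 1.93 FPKM in Akt/Nras/Foxo1AAA tumours and 9.97, 2.36 and 2.73 FPKM in Akt/Nras tumours, overlaps the adaptor gene Shc2, which averaged 8.42 ± 1.49 FPKM in Akt/Nras/Foxo1AAA tumours and 7.73 ± 1.28 FPKM in Akt/Nras tumours, against 0.0223 ± 0.0258 FPKM in normal livers. Gm31036 lies inside Kifc3, a kinesin gene, on the opposite strand, and averaged 5.81 ± 3.17 FPKM in Akt/Nras/Foxo1AAA tumours and 4.49 ± 1.87 FPKM in Akt/Nras tumours, against 0.456 ± 0.314 FPKM in normal livers. Kifc3 averaged 21.2 ± 3.94 FPKM in Akt/Nras/Foxo1AAA tumours and 25.8 ± 7.70 FPKM in Akt/Nras tumours, against 1.98 ± 0.317 FPKM in normal livers. Whether counting used the strand is not stated, so reads of a lncRNA and of a gene opposite to it cannot be told apart.

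The 4 characterised lncRNAs stood modestly lower in tumours by the deposited values, and not all of them did so under other scalings. Malat1, the speckle RNA, had 24.5, 30.4 and 29.5 FPKM in Akt/Nras/Foxo1AAA tumours and 14.6, 31.8 and 22.7 FPKM in Akt/Nras tumours, against 42.3, 60.2, 61.0 and 32.8 FPKM in normal livers. The highest Akt/Nras library, at 31.8 FPKM, was just under the lowest normal liver, at 32.8 FPKM, and the log2 changes were -0.74 ± 0.26 in Akt/Nras/Foxo1AAA tumours (adjusted p = 0.031) and -1.08 ± 0.26 in Akt/Nras tumours (adjusted p = 0.004). Neat1, the paraspeckle scaffold and the longest of the 120, had 4.28, 4.53 and 4.28 FPKM in Akt/Nras/Foxo1AAA tumours and 3.72, 4.05 and 4.51 FPKM in Akt/Nras tumours, against 7.80, 7.03, 8.70 and 7.77 FPKM in normal livers. Its libraries lay close together within each group, and the log2 changes were -0.72 ± 0.09 in Akt/Nras/Foxo1AAA tumours and -0.79 ± 0.09 in Akt/Nras tumours. Norad, which binds Pumilio proteins, averaged 17.8 ± 1.97 FPKM in Akt/Nras/Foxo1AAA tumours and 19.4 ± 2.90 FPKM in Akt/Nras tumours, against 24.9 ± 0.950 FPKM in normal livers, with log2 changes of -0.46 ± 0.11 in Akt/Nras/Foxo1AAA tumours (adjusted p = 0.0032) and -0.35 ± 0.11 in Akt/Nras tumours (adjusted p = 0.013). Oip5os1, known as Cyrano and for directing the decay of miR-7, averaged 6.21 ± 0.303 FPKM in Akt/Nras/Foxo1AAA tumours and 6.42 ± 0.434 FPKM in Akt/Nras tumours, against 7.48 ± 0.776 FPKM in normal livers, with log2 changes of -0.23 ± 0.09 in Akt/Nras/Foxo1AAA tumours (adjusted p = 0.041) and -0.19 ± 0.09 in Akt/Nras tumours (adjusted p = 0.077).

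These values depend on the authors' scaling to different degrees. With equal totals, where the median of all genes is 0.48 in Akt/Nras/Foxo1AAA tumours and 0.71 in Akt/Nras tumours, Norad and Oip5os1 turned, with log2 changes of 0.23 and 0.58 for Norad and of 0.40 and 0.66 for Oip5os1 in that order. Norad was then not called in Akt/Nras/Foxo1AAA tumours. Neat1 came to -0.097 and 0.031. Malat1 stayed below 0 under every scaling tried, at -0.038 and -0.14 with equal totals, but was then not called. With median-ratio scaling all 4 were below 0 in both tumour groups, and the calls of Malat1 in Akt/Nras tumours (adjusted p = 0.011) and of Norad in Akt/Nras/Foxo1AAA tumours (adjusted p = 0.032) were kept, whereas those of Malat1 and Oip5os1 in Akt/Nras/Foxo1AAA tumours (adjusted p = 0.084 and 0.45) and of Norad in Akt/Nras tumours (adjusted p = 0.14) were lost. Set against the medians of all genes under equal totals, all 4 stood below the typical gene. The Malat1 call in Akt/Nras/Foxo1AAA tumours was also lost when any 1 of their 3 libraries, or normal liver library 2 or 3, was left out (adjusted p = 0.053 to 0.096). The Oip5os1 call in the same tumours was lost without Akt/Nras/Foxo1AAA library 1 or 2 or normal liver library 2, 3 or 4 (adjusted p = 0.065 to 0.11), and the Norad call in Akt/Nras tumours without Akt/Nras library 3 (adjusted p = 0.060).

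The 5 snoRNA hosts did not move together. Snhg18 was high in tumours, with 5.81, 8.10 and 11.1 FPKM in Akt/Nras/Foxo1AAA tumours and 5.22, 9.51 and 8.09 FPKM in Akt/Nras tumours, against 0.616, 0.438, 0.548 and 0.446 FPKM in normal livers, and its log2 changes were 2.59 ± 0.20 in Akt/Nras/Foxo1AAA tumours and 2.48 ± 0.20 in Akt/Nras tumours. Snhg8 was low in tumours, with 7.62, 10.8 and 9.93 FPKM in Akt/Nras/Foxo1AAA tumours and 9.05, 9.03 and 11.3 FPKM in Akt/Nras tumours, against 26.4, 25.0, 24.2 and 30.0 FPKM in normal livers, and its log2 changes were -1.40 ± 0.13 in Akt/Nras/Foxo1AAA tumours (adjusted p = 5.2e-06) and -1.34 ± 0.13 in Akt/Nras tumours (adjusted p = 4.4e-06). Both sets of tumour libraries were clear of normal livers. Gas5, a host of many box C/D snoRNAs that responds to growth arrest, averaged 7.02 ± 1.04 FPKM in Akt/Nras/Foxo1AAA tumours and 7.98 ± 0.634 FPKM in Akt/Nras tumours, against 12.4 ± 2.40 FPKM in normal livers, with log2 changes of -0.73 ± 0.15 in Akt/Nras/Foxo1AAA tumours (adjusted p = 0.0014) and -0.56 ± 0.15 in Akt/Nras tumours (adjusted p = 0.006). Zfas1 averaged 3.67 ± 0.856 FPKM in Akt/Nras/Foxo1AAA tumours and 5.12 ± 1.02 FPKM in Akt/Nras tumours, against 5.56 ± 1.06 FPKM in normal livers. Its log2 changes were -0.50 ± 0.17 in Akt/Nras/Foxo1AAA tumours, where it was under the level, and -0.10 ± 0.17 in Akt/Nras tumours (adjusted p = 0.61). Epb41l4aos averaged 5.31 ± 0.909 FPKM in Akt/Nras/Foxo1AAA tumours and 9.05 ± 1.80 FPKM in Akt/Nras tumours, against 14.5 ± 0.890 FPKM in normal livers, with log2 changes of -1.30 ± 0.13 in Akt/Nras/Foxo1AAA tumours (adjusted p = 1.2e-05) and -0.64 ± 0.13 in Akt/Nras tumours (adjusted p = 0.0015). Under equal totals Gas5 came to -0.079 in Akt/Nras/Foxo1AAA tumours and 0.32 in Akt/Nras tumours, Zfas1 to 0.093 and 0.71, and Epb41l4aos to -0.65 and 0.26, whereas Snhg18 and Snhg8 kept their directions under every scaling tried.

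Mir22hg hosts miR-22, a miRNA that is abundant in liver. The host had 5.58, 5.41 and 6.84 FPKM in Akt/Nras/Foxo1AAA tumours and 8.72, 4.71 and 5.02 FPKM in Akt/Nras tumours, against 22.7, 31.5, 19.9 and 22.4 FPKM in normal livers. Every tumour library was below every normal liver, and the log2 changes were -1.84 ± 0.20 in Akt/Nras/Foxo1AAA tumours (adjusted p = 1.8e-05) and -1.84 ± 0.20 in Akt/Nras tumours (adjusted p = 1.2e-05). Under equal totals they were -1.17 and -0.95. It overlaps Tlcd2 on the same strand, which averaged 17.5 ± 4.96 FPKM in Akt/Nras/Foxo1AAA tumours and 12.4 ± 0.211 FPKM in Akt/Nras tumours, against 77.7 ± 4.53 FPKM in normal livers. The mature miRNAs were not measured in these libraries. Their sequences, from RefSeq on GRCm38.p6 (chr11:75463734-75463755 and chr11:75463772-75463793, plus strand), are shown because the host is the 1 miRNA host among the 120, with the seed, bases 2 to 8, in capitals. The 2 arms have different seeds.
miR-22-5p: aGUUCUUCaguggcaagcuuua
miR-22-3p: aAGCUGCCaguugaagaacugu

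**Figure D3:**
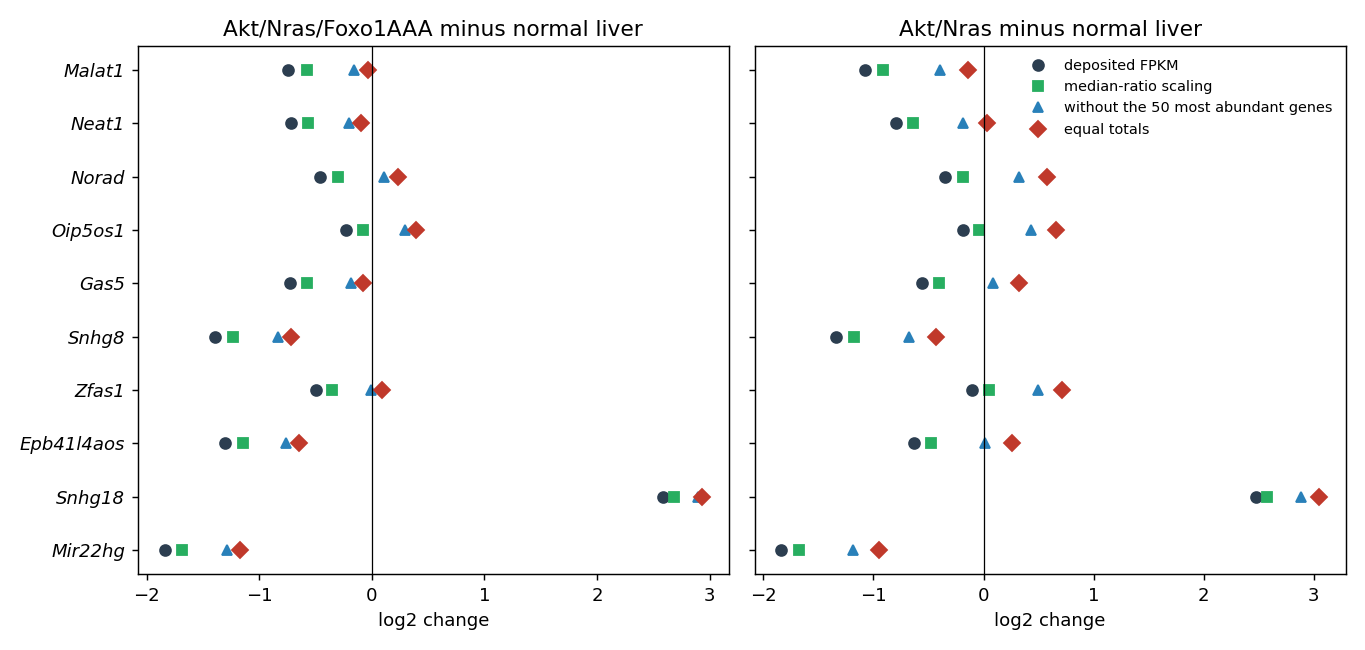
Log2 change from normal liver of 10 lncRNAs with known roles in Akt/Nras/Foxo1AAA tumours (left) and Akt/Nras tumours (right), with the deposited FPKM and 3 other scalings. Each lncRNA moves right under equal totals, so that Norad and Oip5os1 pass 0 in both tumour groups while Mir22hg, Snhg8 and Snhg18 stay on their side.

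The proteins that act with these RNAs are described by lists of 80 tested genes in all. The lists were chosen with earlier results known and the genes named below with their values known, so they are examples, and the counts describe a list. Directions depend on the scaling: of the 80, 8 were higher and 27 lower in Akt/Nras/Foxo1AAA tumours and 18 higher and 21 lower in Akt/Nras tumours by the deposited values, against 55 higher and 2 lower, and 73 higher and 1 lower, with equal totals, where 62.2% and 70.8% of all tested genes were called higher in these tumour groups. The counts that follow are by the deposited values. Of 18 proteins that build snoRNA particles, 0 were higher and 5 lower in Akt/Nras/Foxo1AAA tumours, and 3 were higher and 3 lower in Akt/Nras tumours. Nop10, of the H/ACA particles, averaged 29.8 ± 1.69 FPKM in Akt/Nras/Foxo1AAA tumours and 24.7 ± 3.25 FPKM in Akt/Nras tumours, against 64.1 ± 4.96 FPKM in normal livers (log2 change -1.08 and -1.34, adjusted p = 6.3e-06 and 8.0e-07), and stayed lower with equal totals, at -0.37 and -0.40. Of 15 paraspeckle proteins 3 were higher and 4 lower in Akt/Nras/Foxo1AAA tumours, and 5 were higher and 3 lower in Akt/Nras tumours. Sfpq averaged 22.5 ± 2.95 FPKM in Akt/Nras/Foxo1AAA tumours and 29.7 ± 1.79 FPKM in Akt/Nras tumours, against 15.1 ± 2.84 FPKM in normal livers and was called higher in both (adjusted p = 0.0046 and 1.1e-04), while Ewsr1 averaged 15.6 ± 1.64 FPKM in Akt/Nras/Foxo1AAA tumours and 18.2 ± 3.05 FPKM in Akt/Nras tumours, against 22.6 ± 1.06 FPKM in normal livers and was called lower in both (adjusted p = 0.0021 and 0.029) but had 0.17 and 0.62 with equal totals. Of 18 nonsense-mediated decay factors 1 was higher and 6 lower in Akt/Nras/Foxo1AAA tumours, and 3 were higher and 5 lower in Akt/Nras tumours. Upf1, the helicase of that pathway, averaged 20.6 ± 0.810 FPKM in Akt/Nras/Foxo1AAA tumours and 15.7 ± 2.51 FPKM in Akt/Nras tumours, against 26.8 ± 1.17 FPKM in normal livers (adjusted p = 0.0081 and 6.2e-05), with log2 changes of 0.33 and 0.19 with equal totals.

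Of 19 proteins of the nuclear exosome, which degrades many lncRNAs, 2 were higher and 9 lower in Akt/Nras/Foxo1AAA tumours, and 3 were higher and 8 lower in Akt/Nras tumours. Exosc5, a subunit of its core, averaged 5.79 ± 0.202 FPKM in Akt/Nras/Foxo1AAA tumours and 5.41 ± 0.653 FPKM in Akt/Nras tumours, against 11.6 ± 1.23 FPKM in normal livers (log2 change -0.89 and -0.98, adjusted p = 2.0e-05 and 6.6e-06, and -0.24 and -0.12 with equal totals), and its cofactor Mphosph6 averaged 3.98 ± 0.906 FPKM in Akt/Nras/Foxo1AAA tumours and 5.88 ± 1.25 FPKM in Akt/Nras tumours, against 1.43 ± 0.366 FPKM in normal livers (log2 change 1.03 and 1.501, adjusted p = 3.4e-04 and 1.7e-05). Of 10 tested miRNA processing genes 2 were higher and 3 lower in Akt/Nras/Foxo1AAA tumours, and 4 were higher and 2 lower in Akt/Nras tumours. Ago2, the slicing Argonaute, averaged 3.21 ± 0.204 FPKM in Akt/Nras/Foxo1AAA tumours and 3.90 ± 0.570 FPKM in Akt/Nras tumours, against 1.98 ± 0.181 FPKM in normal livers (adjusted p = 0.001 and 6.8e-05), and Dicer1 averaged 1.99 ± 0.196 FPKM in Akt/Nras/Foxo1AAA tumours and 2.15 ± 0.397 FPKM in Akt/Nras tumours, against 3.17 ± 0.269 FPKM in normal livers (adjusted p = 0.002 and 0.0046), with log2 changes of 0.037 and 0.29 with equal totals.

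By position, 49 of the 120 overlapped a protein-coding gene on the opposite strand, 19 of them wholly inside it, and 8 overlapped one on the same strand. Another 15 started within 2 kb of a protein-coding start in the other direction, 20 lay within 5 kb and 28 farther away. Of the 92 that overlapped or lay within 5 kb, 84 had a neighbour that was tested. In Akt/Nras/Foxo1AAA tumours 20 of these neighbours were higher and 43 lower, and lncRNA and neighbour were called in the same direction in 49 pairs and in opposite directions in 8. In Akt/Nras tumours 25 neighbours were higher and 44 lower, with 55 pairs in the same direction, 43 of them both lower and 12 both higher, and 8 in opposite directions. Over all tested genes 26.8% were higher and 36.5% lower in Akt/Nras/Foxo1AAA tumours, and 31.1% higher and 37.9% lower in Akt/Nras tumours. Of the 120 lncRNAs 67 reached the level in normal liver only and so had to stand lower, which adds to the pairs both lower. With equal totals 85 neighbours were tested, and 45 were higher and 21 lower in each tumour group. Over all genes 62.2% were then higher in Akt/Nras/Foxo1AAA tumours and 70.8% in Akt/Nras tumours. The agreement of pairs was not counted under that scaling. Across the 84 pairs the log2 changes had a Pearson r of 0.62 in Akt/Nras/Foxo1AAA tumours and 0.67 in Akt/Nras tumours. For the 22 lncRNAs farther than 5 kb with a tested nearest gene, r was 0.12 and 0.07. Their Spearman rho was 0.30 and 0.28, beside 0.62 and 0.69 for the 84 pairs. Of the far pairs 9 were called in the same direction and 8 in opposite directions in Akt/Nras/Foxo1AAA tumours, and 10 and 7 in Akt/Nras tumours. All these values are descriptions across genes that share the same libraries, and overlapping pairs may share reads. The 15 pairs that start head to head do not overlap, and had an r of 0.72 and 0.74 in the tumour groups in that order. The 19 other tested pairs within 5 kb do not overlap either, and had an r of 0.43 and 0.61. Spearman rho was 0.68 and 0.78 for the head-to-head pairs and 0.38 and 0.50 for these 19.

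**Figure D4:**
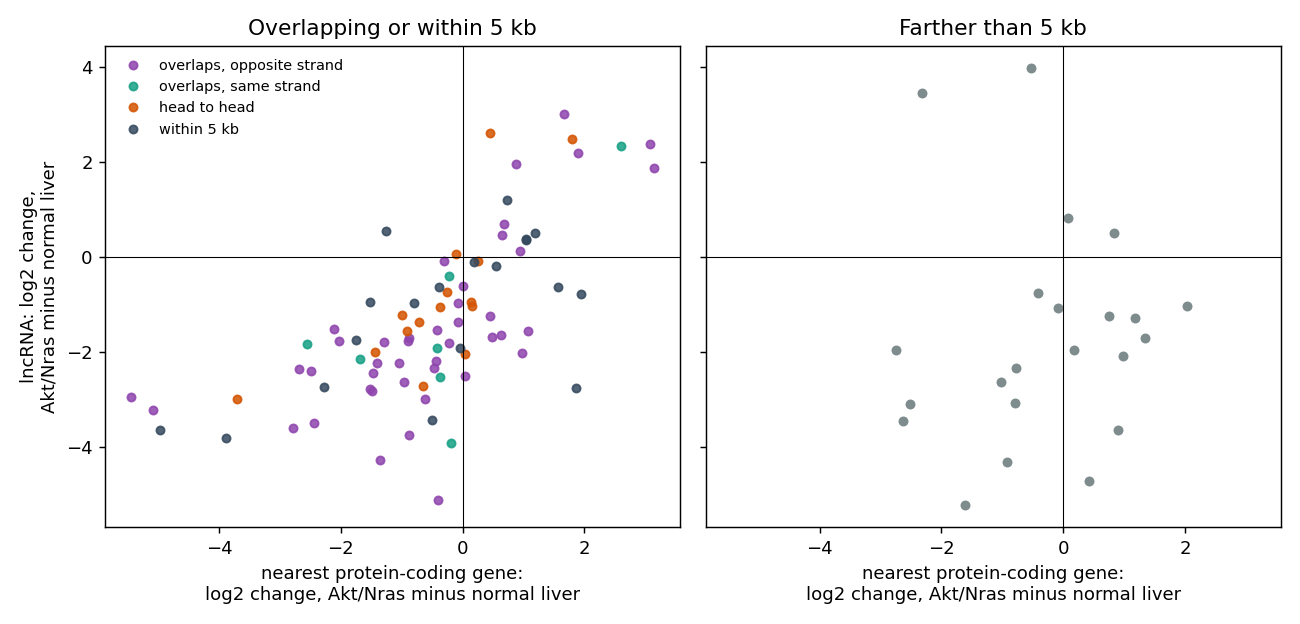
Log2 change in Akt/Nras tumours from normal liver of each lncRNA (vertical axis) and of its nearest protein-coding gene (horizontal axis), for 84 pairs that overlap or lie within 5 kb (left, coloured by position) and 22 that lie farther apart (right). On the left most points lie at the lower left and the upper right, and 8 pairs were called in opposite directions.

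Several pairs hold well-known liver genes. ENSMUSG00000120173 overlaps Car3, a carbonic anhydrase gene that is among the most abundant of liver. The lncRNA averaged 1.23 ± 0.362 FPKM in Akt/Nras/Foxo1AAA tumours and 0.299 ± 0.151 FPKM in Akt/Nras tumours, against 9.16 ± 1.54 FPKM in normal livers, and Car3 averaged 193 ± 87.3 FPKM in Akt/Nras/Foxo1AAA tumours and 56.0 ± 30.9 FPKM in Akt/Nras tumours, against 2136 ± 132 FPKM in normal livers. Gm11789 overlaps the glucagon receptor gene Gcgr. The lncRNA averaged 4.77 ± 1.37 FPKM in Akt/Nras/Foxo1AAA tumours and 1.63 ± 0.589 FPKM in Akt/Nras tumours, against 12.4 ± 1.01 FPKM in normal livers, and Gcgr averaged 59.6 ± 16.1 FPKM in Akt/Nras/Foxo1AAA tumours and 24.4 ± 7.20 FPKM in Akt/Nras tumours, against 159 ± 6.43 FPKM in normal livers. Gm45091 overlaps Cebpa, a transcription factor gene of hepatocytes, and averaged 0.959 ± 0.614 FPKM in Akt/Nras/Foxo1AAA tumours and 1.22 ± 0.105 FPKM in Akt/Nras tumours, against 5.43 ± 1.15 FPKM in normal livers, and Cebpa averaged 199.7 ± 24.2 FPKM in Akt/Nras/Foxo1AAA tumours and 107 ± 29.8 FPKM in Akt/Nras tumours, against 457 ± 27.2 FPKM in normal livers. Gm12909 averaged 1.77 ± 0.857 FPKM in Akt/Nras/Foxo1AAA tumours and 0.914 ± 0.515 FPKM in Akt/Nras tumours, against 14.0 ± 0.887 FPKM in normal livers, and Mup3 averaged 1823 ± 835 FPKM in Akt/Nras/Foxo1AAA tumours and 880.4 ± 411 FPKM in Akt/Nras tumours, against 10420.0 ± 800.1 FPKM in normal livers. Mup3, a major urinary protein gene, starts 945 bases from the lncRNA in the other direction. ENSMUSG00000120904 lies 1525 bases from the alcohol dehydrogenase gene Adh4. The lncRNA averaged 8.72 ± 3.28 FPKM in Akt/Nras/Foxo1AAA tumours and 2.86 ± 2.11 FPKM in Akt/Nras tumours, against 49.4 ± 7.68 FPKM in normal livers, and Adh4 averaged 22.9 ± 6.64 FPKM in Akt/Nras/Foxo1AAA tumours and 8.56 ± 2.25 FPKM in Akt/Nras tumours, against 138 ± 4.92 FPKM in normal livers. All these pairs were lower on both sides in both tumour groups, and the 5 neighbours stayed lower with equal totals.

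Other neighbours went apart. Prox1os, opposite to the hepatocyte transcription factor gene Prox1, averaged 1.47 ± 0.150 FPKM in Akt/Nras/Foxo1AAA tumours and 1.67 ± 0.848 FPKM in Akt/Nras tumours, against 5.21 ± 0.736 FPKM in normal livers, while Prox1 averaged 17.3 ± 1.26 FPKM in Akt/Nras/Foxo1AAA tumours and 17.0 ± 1.95 FPKM in Akt/Nras tumours, against 12.2 ± 1.23 FPKM in normal livers and was called higher (adjusted p = 0.0021 and 0.0028). B630019A10Rik, which lies 293 bases from St6gal1, a sialyltransferase gene, averaged 0.798 ± 0.217 FPKM in Akt/Nras/Foxo1AAA tumours and 0.317 ± 0.151 FPKM in Akt/Nras tumours, against 7.92 ± 0.896 FPKM in normal livers, while St6gal1 averaged 62.6 ± 6.94 FPKM in Akt/Nras/Foxo1AAA tumours and 65.5 ± 6.15 FPKM in Akt/Nras tumours, against 17.5 ± 3.11 FPKM in normal livers. Gm16174 lies inside Bcl3, an NF-kappaB cofactor gene, and averaged 0.392 ± 0.140 FPKM in Akt/Nras/Foxo1AAA tumours and 0.742 ± 0.385 FPKM in Akt/Nras tumours, against 6.02 ± 1.02 FPKM in normal livers, while Bcl3 averaged 49.996 ± 5.28 FPKM in Akt/Nras/Foxo1AAA tumours and 30.0 ± 6.27 FPKM in Akt/Nras tumours, against 14.9 ± 3.20 FPKM in normal livers. Neat1 and its neighbour Frmd8 are a further such pair by the deposited values, with Frmd8 at 22.8 ± 3.91 FPKM in Akt/Nras/Foxo1AAA tumours and 19.6 ± 2.05 FPKM in Akt/Nras tumours, against 4.35 ± 0.408 FPKM in normal livers. Of the other lncRNAs on opposite strands, Brip1os averaged 6.69 ± 0.266 FPKM in Akt/Nras/Foxo1AAA tumours and 6.25 ± 1.12 FPKM in Akt/Nras tumours, against 4.62 ± 0.310 FPKM in normal livers, with log2 changes of 0.45 ± 0.10 in Akt/Nras/Foxo1AAA tumours and 0.36 ± 0.10 in Akt/Nras tumours. Ttc39aos1 averaged 4.21 ± 0.291 FPKM in Akt/Nras/Foxo1AAA tumours and 3.32 ± 0.750 FPKM in Akt/Nras tumours, against 6.27 ± 1.19 FPKM in normal livers, a difference that turned to 0.14 and 0.044 with equal totals, and Zbtb11os1 averaged 1.67 ± 0.411 FPKM in Akt/Nras/Foxo1AAA tumours and 1.48 ± 0.985 FPKM in Akt/Nras tumours, against 6.01 ± 1.22 FPKM in normal livers.

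Foxo1AAA was tested by setting the tumour groups against each other. Of the 120 lncRNAs 24 were called higher and 3 lower in Akt/Nras/Foxo1AAA tumours than in Akt/Nras tumours, where 7.93% and 4.13% of all tested genes were called in these directions and 12.1% in either. With equal totals 24 were higher and 8 lower, where 5.28% and 26.8% of all tested genes were called. The median log2 change was 0.17 for the lncRNAs and -0.01 for all tested genes. Normal liver alone brought 106 of the 120 past the level, a choice that does not use this contrast. Of these 106, 24 were higher (22.6%) and 1 lower (0.943%), and of 5654 protein-coding genes at that level in normal liver 14.7% were higher and 1.98% lower. All 24 higher lncRNAs were among the 89 that stood lower than normal liver in both tumour groups. Of the 31 lncRNAs at the level in all 3 groups, 3 were higher (9.68%) and 1 lower (3.23%), with a median log2 change of -0.04. Protein-coding genes past the level in any group were higher in 12.7% of cases and lower in 4.21%. Of the 9 hepatocyte markers 5 were higher and 0 lower (3 and 0 with equal totals). Of 7 tested cholangiocyte and progenitor markers 0 were higher and 4 lower, and of 8 stellate cell and fibroblast markers 0 were higher and 3 lower. The part of these cell types in the lncRNA changes was not tested. Of the 390 lncRNAs outside the rule 11 were higher and 7 lower, and with equal totals 20 were higher and 31 lower.

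The largest increase was that of Gm32872, shown above, which had 19.9, 12.6 and 6.49 FPKM in Akt/Nras/Foxo1AAA tumours, against 0, 1.37 and 5.04 FPKM in Akt/Nras tumours. The groups did not overlap, but each of them was widely spread (log2 change 2.40 ± 0.55, adjusted p = 0.021). BC024386 had a log2 change of 1.24 ± 0.24 (adjusted p = 0.011), 1810008I18Rik of 1.22 ± 0.23 (adjusted p = 0.011) and 2310015A16Rik of 1.12 ± 0.22 (adjusted p = 0.011). In all 3 the lowest Akt/Nras/Foxo1AAA library was above the highest Akt/Nras library, and the Akt/Nras/Foxo1AAA libraries stayed far below normal liver. 0610005C13Rik averaged 21.4 ± 3.27 FPKM in Akt/Nras/Foxo1AAA tumours, against 11.6 ± 1.65 FPKM in Akt/Nras tumours (adjusted p = 0.0052). Gm11789 averaged 4.77 ± 1.37 FPKM, against 1.63 ± 0.589 FPKM in Akt/Nras tumours (adjusted p = 0.0081), and Gcgr opposite to it had a log2 change of 1.26 (adjusted p = 0.0079). Gm20319, opposite to the interleukin receptor subunit gene Il1rap, averaged 4.90 ± 1.49 FPKM in Akt/Nras/Foxo1AAA tumours, against 2.20 ± 0.0448 FPKM in Akt/Nras tumours (adjusted p = 0.0099).

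AW112010, an interferon-inducible transcript known from mouse macrophages, had 22.9, 22.2 and 16.4 FPKM in Akt/Nras/Foxo1AAA tumours and 5.38, 7.49 and 13.3 FPKM in Akt/Nras tumours, against 49.2, 56.0, 53.6 and 54.5 FPKM in normal livers. Its log2 change between the tumour groups was 1.21 ± 0.24 (adjusted p = 0.013), and it was lost as a call without Akt/Nras/Foxo1AAA library 1 (adjusted p = 0.056) or 2 (adjusted p = 0.052). The 8 macrophage markers summed to 344 to 388 FPKM in Akt/Nras/Foxo1AAA tumours and 248 to 421 FPKM in Akt/Nras tumours. In normal livers they summed to 158 to 251 FPKM. By the deposited values 5 were higher and 0 lower in Akt/Nras/Foxo1AAA tumours, and 5 were higher and 2 lower in Akt/Nras tumours. The part of macrophages in the level of AW112010 was not tested. The 3 lncRNAs called lower were Gm20186, ENSMUSG00000120863 and the snoRNA host Epb41l4aos. ENSMUSG00000120863, next to Arl10, had 5.07, 5.05 and 5.01 FPKM in Akt/Nras/Foxo1AAA tumours, against 7.47, 6.96 and 8.29 FPKM in Akt/Nras tumours (log2 change -0.50 ± 0.08, adjusted p = 0.0071). Gm20186 had a log2 change of -0.90 ± 0.21 (adjusted p = 0.021) and Epb41l4aos of -0.67 ± 0.14 (adjusted p = 0.017).

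These calls between the tumour groups rest on the spread estimated over all 10 libraries. With the 6 tumour libraries alone limma called 0 of the 120 lncRNAs, with 37 higher and 5 lower at an unadjusted p under 0.05 and a lowest adjusted p of 0.0522, and called 10 of all 12439 genes. Without Akt/Nras/Foxo1AAA library 1 the 24 higher lncRNAs came to 10, without library 2 of that group to 12, and without Akt/Nras library 1 to 14, and the 3 lower came to 1 without Akt/Nras/Foxo1AAA library 1 or 2. Of the calls described, that of Gm32872 was lost without Akt/Nras/Foxo1AAA library 1 or 2 or Akt/Nras library 2 (adjusted p = 0.051 to 0.086), that of Gm20186 without Akt/Nras/Foxo1AAA library 1 or 2 or Akt/Nras library 1 (adjusted p = 0.066 to 0.085), and that of Epb41l4aos without Akt/Nras/Foxo1AAA library 1 or 2 (adjusted p = 0.057 to 0.068). Of the lncRNAs with known roles, Malat1, Neat1, Norad, Oip5os1, Mir22hg, Gas5, Snhg8 and Snhg18 were not called between the tumour groups, with log2 changes of 0.34, 0.08, -0.11, -0.04, -0.005, -0.17, -0.05 and 0.11 in that order. Of the 84 neighbours 15 were higher and 6 lower (10 and 15 with equal totals), and 7 pairs were called in the same direction and 0 in opposite directions. Over all tested genes 7.93% were higher and 4.13% lower (5.28% and 26.8% with equal totals). Of the 80 partner proteins 1 was higher and 3 lower (0 and 37 with equal totals), among the lower Hnrnpa1 of paraspeckles at 22.9 ± 2.40 FPKM in Akt/Nras/Foxo1AAA tumours, against 42.3 ± 5.26 FPKM in Akt/Nras tumours (adjusted p = 0.013).

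**Figure D5:**
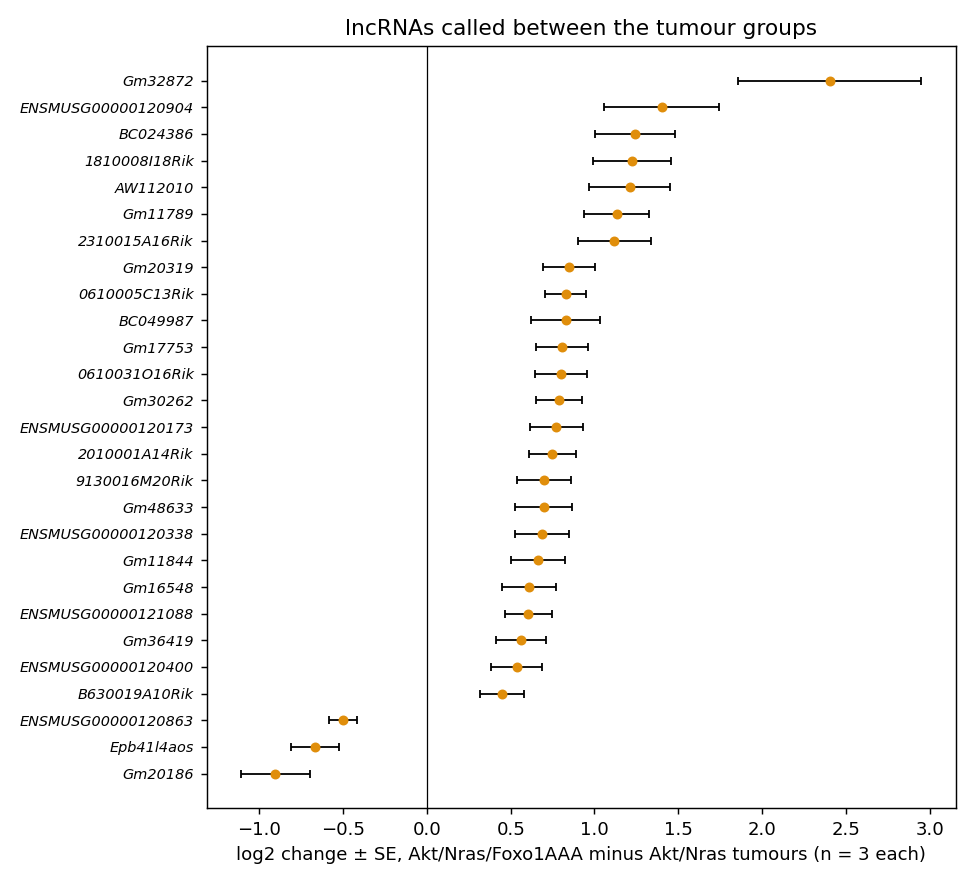
Log2 change with its SE in Akt/Nras/Foxo1AAA tumours from Akt/Nras tumours (n = 3 each) of the 27 lncRNAs called in this comparison. There are 24 points to the right of 0, led by Gm32872, and 3 to the left, Gm20186, Epb41l4aos and ENSMUSG00000120863.

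Promoter sequences of RefSeq (GRCm38.p6, 250 bases before to 50 bases after a start) were found by symbol for 54 of the 120 lncRNAs, with 71 starts. Each was searched on both strands for the motifs TGTTTAC (forkhead factors, the family of FOXO1), CAAAGTCCA (HNF4), TTGCNNAA (C/EBP), TGANTCA (AP-1), TTCNNNGAA (STAT5) and TATAAA (the TATA box). The forkhead motif stood in 3 of the 71 (4.23%) and in 3.65% of all 32851 promoters. The C/EBP motif stood in 13 of 71 (18.3%) and 10.8%, and TATAAA in 15 of 71 (21.1%) and 13.6%. HNF4 stood in 0 of 71 and 0.475%, AP-1 in 4 (5.63%) and 7.81%, and STAT5 in 5 (7.04%) and 8.30%. The lncRNAs called lower in Akt/Nras tumours have 57 of these promoters, of which 13 hold a C/EBP match and 3 a forkhead match. Those called higher have 9, of which 3 hold a TATAAA match and 0 any of the other motifs. Starts of the same gene were counted separately, also where their sequences overlap. A match is a string of letters and not a bound site.

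A few promoters are printed because their genes carry the changes above, with matches in capitals. The second of 2 starts of 1810008I18Rik (chr7:65803783-65804082, plus strand) holds 2 forkhead matches on the minus strand, at -245 and -15 from the start. Gm31583 (chr16:24090016-24090315, minus strand) holds a C/EBP match at -145. BC024386 (chr7:140905771-140906070, plus strand) holds none of the 6 motifs. 1700049E15Rik (chr6:147689991-147690290, plus strand), high in tumours, holds 2 TATAAA matches, 1 on each strand, that overlap at -116 and -114.
1810008I18Rik: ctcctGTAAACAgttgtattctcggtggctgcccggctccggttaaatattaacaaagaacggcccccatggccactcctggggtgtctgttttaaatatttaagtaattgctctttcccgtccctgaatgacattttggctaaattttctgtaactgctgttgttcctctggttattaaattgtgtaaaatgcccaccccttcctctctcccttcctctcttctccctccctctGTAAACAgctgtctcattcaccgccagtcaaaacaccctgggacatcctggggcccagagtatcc
Gm31583: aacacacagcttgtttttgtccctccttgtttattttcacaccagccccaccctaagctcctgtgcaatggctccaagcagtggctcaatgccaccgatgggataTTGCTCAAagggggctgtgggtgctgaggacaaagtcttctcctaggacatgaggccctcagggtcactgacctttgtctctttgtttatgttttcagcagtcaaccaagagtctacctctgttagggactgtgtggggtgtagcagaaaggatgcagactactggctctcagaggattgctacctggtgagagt
BC024386: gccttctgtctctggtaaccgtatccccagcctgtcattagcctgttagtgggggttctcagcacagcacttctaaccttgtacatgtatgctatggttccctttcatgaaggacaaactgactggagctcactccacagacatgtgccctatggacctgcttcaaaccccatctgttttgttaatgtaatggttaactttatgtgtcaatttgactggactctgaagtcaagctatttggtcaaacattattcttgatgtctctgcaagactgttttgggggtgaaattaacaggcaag
1700049E15Rik: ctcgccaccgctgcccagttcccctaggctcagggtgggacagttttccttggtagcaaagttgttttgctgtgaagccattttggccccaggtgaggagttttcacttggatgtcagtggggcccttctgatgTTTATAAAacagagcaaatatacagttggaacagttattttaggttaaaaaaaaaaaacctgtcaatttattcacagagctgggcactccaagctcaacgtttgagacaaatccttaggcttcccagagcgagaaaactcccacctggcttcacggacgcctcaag

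The replicates of these lncRNAs spread more widely than those of protein-coding genes, in sets that were not matched on level or reads. The part of read number in this difference was not tested. Over the genes of at least 5 FPKM in a group, the median coefficient of variation was 16.1% for 50 lncRNAs in Akt/Nras/Foxo1AAA tumours, 20.5% for 44 in Akt/Nras tumours and 16.9% for 106 in normal livers, beside 9.53%, 10.7% and 8.07% for protein-coding genes in the same order. Gm10076 had the highest coefficient of variation in Akt/Nras/Foxo1AAA tumours, with 26.0, 30.5 and 163 FPKM in Akt/Nras/Foxo1AAA tumours and 33.0, 22.3 and 47.7 FPKM in Akt/Nras tumours, against 33.8, 62.4, 77.0 and 136 FPKM in normal livers. Its groups overlapped throughout and it was not called, although without Akt/Nras/Foxo1AAA library 3 it was called lower in that group (log2 change -1.26, adjusted p = 0.040). ENSMUSG00000121141 differed little by the deposited values, at 23.3 ± 5.44 FPKM in Akt/Nras/Foxo1AAA tumours and 24.0 ± 2.35 FPKM in Akt/Nras tumours, against 26.0 ± 2.05 FPKM in normal livers, and was not called, but had 0.52 and 0.82 with equal totals. C4a, a complement gene that this table lists as a lncRNA, averaged 3.67 ± 1.23 FPKM in Akt/Nras/Foxo1AAA tumours and 2.73 ± 0.309 FPKM in Akt/Nras tumours, against 40.2 ± 8.42 FPKM in normal livers; C4b is nearly identical to it, so its reads are uncertain.

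At the threshold, the 3 lncRNAs just above it were Gm47163, Hmga2-ps1 and Gm37768. Their highest group means were 5.02 FPKM and 5.06 FPKM in Akt/Nras tumours and 5.09 FPKM in Akt/Nras/Foxo1AAA tumours. Just below it were Gm47283 at 4.96 FPKM in Akt/Nras tumours, and Gm15318 at 4.92 FPKM and Gm12354 at 4.90 FPKM in normal livers. Hmga2-ps1 averaged 3.08 ± 2.20 FPKM in Akt/Nras/Foxo1AAA tumours and 5.06 ± 2.20 FPKM in Akt/Nras tumours, against 0.514 ± 0.135 FPKM in normal livers, and Gm37768 averaged 5.09 ± 0.819 FPKM in Akt/Nras/Foxo1AAA tumours and 4.39 ± 0.676 FPKM in Akt/Nras tumours, against 2.48 ± 1.07 FPKM in normal livers.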

How the data were processed

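Total RNA was sequenced from 10 liver samples, grouped by the sample titles. The authors deposited 1 table of FPKM per gene, with 1 column per library, per the file headers. The labels' protocols describe the library step as polyA capture or rRNA depletion without choosing. FastQC 0.11.7 and GRCm38 stand in the submitters' processing notes; no source used here gives the aligner, counter, strand or annotation. Coordinates are those of the table, whose build is not named: of 86 of the lncRNAs also in the GRCm38 GENCODE annotation 1 had the same coordinates, so they must not be set beside the GRCm38 coordinates of printed sequences.

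FPKM times the listed length gave whole reads within 0.02 reads for 100% of values, and these gave depth and shares. Genes with at least 1 FPKM in at least 3 libraries (12439) were fitted as log2(FPKM + 1) in limma 3.58.1 (R 4.3.3; lmFit, contrasts.fit, eBayes with trend, all 10 libraries, a mean per group, two-sided), with Benjamini-Hochberg adjustment over all tested genes and calls at 0.05. The fit was tested on simulated data. Values after ± are SD of libraries, or SE for log2 changes. No 2 libraries were identical. Genes were named by a rule: lncRNAs with a listed role, the 10 highest, up to 8 called each way per comparison, those at the threshold, close neighbours of the called ones, and up to 2 partner genes each way per list. B630019A10Rik, Gm16174, Gm45091, Gm12909, ENSMUSG00000120173 and C4a, and the neighbours of these and of lncRNAs named by role or level, fall outside it and were chosen after their values were seen. The lncRNAs, lists and motifs were chosen with earlier results of these data known. Alternatives were the pseudocount, filters, 3 scalings, fits of the 2 groups alone, a replicate block and leaving out each library.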

Additional observations from a re-analysis of the deposited data

Results flagged for a closer look

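Of 45 named lncRNAs 5 had 1 normal liver that stood apart from the other 3, where chance flags about 1 group in 20. ENSMUSG00000120841 had 87.6 FPKM in normal liver library 3, against 28.2 to 28.4 FPKM in the others, and without that library its log2 change was -4.85 in Akt/Nras/Foxo1AAA tumours and -4.84 in Akt/Nras tumours. Brip1os had 4.16 FPKM in library 3, Gm11789 had 13.9 FPKM in library 2, Hmga2-ps1 had 0.715 FPKM in library 1 and Zfas1 had 7.14 FPKM in library 1. Groups of 3 tumours were not examined in this way.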

How the results depend on the processing

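Against normal liver the counts of called lncRNAs stayed within 1.5 times under the alternatives run, except the 19 higher in Akt/Nras tumours, which came to 30 under equal totals. Leaving out each library gave 15 to 17 higher and 87 to 92 lower in Akt/Nras/Foxo1AAA tumours and 16 to 19 higher and 89 to 91 lower in Akt/Nras tumours. Between the tumour groups the 24 higher came to 12 with no filter, 0 with the 2 groups fitted alone, 12 with the replicate block and 10 to 27 with a library left out. The 3 lower came to 8 under equal totals, 0 with the 2 groups alone, 1 with the block and 1 to 4 with a library left out. The 4 partner genes called there came to 1 with no filter, 37 under equal totals, 11 scaled without the 50 most abundant genes, 0 with the 2 groups alone (15 at an unadjusted p under 0.05 in limma), 1 with the block and 0 to 5 with a library left out. The 21 neighbours came to 13, 0 (29 at an unadjusted p under 0.05), 8 and 10 to 25 with no filter, the 2 groups alone, the block and a library left out. Against normal liver the 35 partner genes called with Foxo1AAA came to 57 under equal totals, and the 39 called without it to 23 with a minimum of 5 FPKM, 74 under equal totals and 67 without the 50 most abundant genes. Leaving out a library gave 30 to 37 with Foxo1AAA and 31 to 36 without it, and for the neighbours 58 to 64 with it and 65 to 68 without it. Scaling sets the zero. Under equal totals the median of all genes moved to 0.48 with Foxo1AAA and 0.71 without it against normal liver, and to -0.21 between the tumour groups, and without the 50 most abundant genes to 0.39, 0.51 and -0.10. The lncRNA median minus that of all genes was -1.64 in Akt/Nras tumours by the deposited values and -1.63 under equal totals. The choice by level in normal liver favours a gap below 0, and a scaling moves both medians, so the steady gap is no check of that choice. For the 31 lncRNAs at the level in all 3 groups the median was -0.56 and 0.32 in that order, beside -0.07 and 0.71 over all genes.

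Directions turned in Akt/Nras tumours under equal totals for ENSMUSG00000121141 (0.82), Epb41l4aos (0.26), Gas5 (0.32), Neat1 (0.031), Norad (0.58), Oip5os1 (0.66), Ttc39aos1 (0.044) and Zfas1 (0.71), and without the 50 most abundant genes for ENSMUSG00000121141 (0.57), Epb41l4aos (0.015), Gas5 (0.082), Norad (0.32), Oip5os1 (0.43) and Zfas1 (0.49). In Akt/Nras/Foxo1AAA tumours they turned for ENSMUSG00000121141 (0.52, 0.40), Norad (0.23, 0.11), Oip5os1 (0.40, 0.29) and Ttc39aos1 (0.14, 0.034) under both, and for Zfas1 (0.093) under equal totals. Only ENSMUSG00000121141 and Oip5os1 were then called higher in both tumour groups, and Norad and Zfas1 in Akt/Nras tumours. The turned values of Epb41l4aos, Gas5, Neat1 and Ttc39aos1 were not called, so for these only the sign changed. Of the 45 named lncRNAs 15 were called between the tumour groups, and all 15 calls were lost with the 2 groups fitted alone. Of these 15 calls, 7 were lost in at least 1 fit that left out a library. Against normal liver 4 calls were lost in such a fit with Foxo1AAA and 2 without it. Deviations of same-numbered libraries correlated between -0.17 and 0.11. Libraries with different numbers were not set beside them, so these values cannot show whether the replicate numbers pair the libraries. Depth limits the low lncRNAs most: among those with a mean of 5 FPKM or more in normal liver, the fewest reads in a normal liver library were 10.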
